A study of Bos taurus with 10 samples.

Results

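Transcripts of 4 bovine MHC class II genes were measured in cattle blood: BOLA-DRA (ENSBTAG00000010645), BOLA-DRB3 (ENSBTAG00000013919), a BOLA-DQA gene (ENSBTAG00000009656) and BOLA-DQB (ENSBTAG00000021077). They were chosen by identifier as genes that mark B cells and other antigen-presenting cells, and all 4 were found among the 24616 Ensembl genes counted. Poly(A) RNA was sequenced in 10 libraries of Bos taurus blood, each made from a pool of 3 animals. The control group held 5 pools, and the other 5 came from animals given a mineral supplement meant to raise copper. Breed, age and sex are not given in the labels used here, nor is anything else that the groups shared. The recorded copper level, averaged over the animals of a pool and without a stated unit, was 23.42, 24.58, 56.18, 63.37 and 95.61 in control pools 1 to 5. It was 95.48, 185.99, 183.61, 342.42 and 330.75 in supplemented pools 1 to 5. A pool averages over its animals and over every circulating cell type, so variation between single animals is not visible.

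MHC class II molecules are pairs of an alpha and a beta chain that hold peptides from ingested proteins at the cell surface and show them to CD4+ T cells. In blood they are carried mainly by B cells, monocytes and dendritic cells, and in cattle also by some activated T cells. BOLA-DRA encodes the alpha chain and BOLA-DRB3 the main beta chain of the DR molecule. The DR alpha chain is nearly invariant, whereas DRB3 has a large number of alleles. BOLA-DQA and BOLA-DQB encode the chains of the DQ molecule. Both DQ genes are highly polymorphic, and cattle haplotypes differ in whether they carry a single or a duplicated DQ pair.

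The RefSeq annotation of the assembly ARS-UCD2.0 places the DQ and DR genes next to each other, in the order BOLA-DQA2, BOLA-DQB, BOLA-DQA5, BOLA-DQB1, a BOLA-DQA1 entry, BOLA-DRB3, BOLA-DRB2 and BOLA-DRA, with pseudogenes beside BOLA-DRB2. The counts were made on the build UMD3.1, so no coordinates are given. Which DQA and DQB locus of that list the 2 DQ identifiers stand for was not settled. The counts of DQ and DRB genes are uncertain to the extent that reads matched their near-identical copies. They are also uncertain where an animal's alleles or gene copies differ from the build, since such reads may be lost or counted elsewhere. How far this affected the DQ levels and ratios was not tested. In the layout of these tables a read that maps to several places is counted to no gene. Such reads made up 4.64 to 7.10% of a library, and how many of them came from MHC genes is not known.

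Depth was 24487010 to 32663198 gene counts per library. The 4 genes together held 0.530 to 0.718% of these counts, 0.599 ± 0.061% in control and 0.609 ± 0.081% in supplemented pools (SD, n = 5 each). The lowest single value was 516 counts, for BOLA-DQB in control pool 4. At that count the counting error is 0.06 on the log2 scale, and intervals of this kind cover counting error only, since amplified reads without molecular identifiers may repeat a molecule. All 4 genes passed the filter on low counts that left 12932 genes for testing. The files pair no identifier with a symbol, so markers of B cells, monocytes, T cells and other blood cells, and the other genes of the MHC class II pathway, were not analysed here. On the scale of CPM (explained below), control pool 5 and supplemented pool 3 stood apart from their groups for BOLA-DQB. The results that rest on them are given with and without them.

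The alpha chain transcript BOLA-DRA was abundant and similar in every pool. In CPM (counts scaled to a common library size, here with TMM factors) it measured 2930, 3572, 3981, 3875 and 3341 in control pools 1 to 5. In supplemented pools 1 to 5 it measured 3568, 2760, 4192, 4447 and 3250 CPM. Both the lowest and the highest pool were supplemented, and the control pools lay inside their range. The highest pool exceeded the lowest by 1.61-fold. By mean CPM the gene ranked 22 among the 12932 tested. Since a value is an average over whole blood, fewer antigen-presenting cells and less RNA per cell cannot be told apart.

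BOLA-DRB3, the beta chain that pairs with it, was just as even. It measured 1938, 1818, 2339, 2174 and 2056 CPM in control pools 1 to 5 and 1843, 1692, 2399, 2301 and 1734 CPM in supplemented pools 1 to 5. Supplemented pool 3 was highest and supplemented pool 2 lowest, 1.42-fold apart, and the groups overlapped. For both DR genes supplemented pools 2 and 5 were among the 3 lowest and supplemented pools 3 and 4 among the 3 highest.

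The DQ genes behaved otherwise. BOLA-DQA, the DQ alpha chain, measured 619.5, 340.2, 131.0, 130.4 and 333.2 CPM in control pools 1 to 5. It measured 137.1, 354.3, 518.7, 442.7 and 301.3 CPM in supplemented pools 1 to 5. The pools were cut into 2 clusters at the widest gap between ordered values. Control pools 3 and 4 and supplemented pool 1 lay at or below 137.1 CPM, and the other 7 pools at or above 301.3 CPM. This gap of 1.14 on the log2 scale was 50.5% of the whole range. The upper 7 pools alone ran from 301.3 to 619.5 CPM. Any set of values has a widest gap, and whether the clusters are distinct was not tested. Each group had pools in both clusters, and the highest pool exceeded the lowest by 4.75-fold.

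BOLA-DQB, the DQ beta chain, varied most. It measured 64.8, 59.5, 48.0, 16.3 and 192.8 CPM in control pools 1 to 5, from 1520, 1504, 1122, 516 and 6788 counts. It measured 85.5, 44.6, 528.0, 44.7 and 28.9 CPM in supplemented pools 1 to 5, from 2478, 1276, 13904, 1106 and 773 counts. Supplemented pool 3 was highest and control pool 4 lowest, 32.3-fold apart, and the groups overlapped over most of their range. Within the controls alone the pools spanned 11.8-fold, and within the supplemented pools 18.3-fold. Without control pool 5 and supplemented pool 3 the remaining 8 pools spanned 5.24-fold. Supplemented pool 3 was second highest for BOLA-DRA and BOLA-DQA and highest for BOLA-DRB3.

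**Figure D1:**
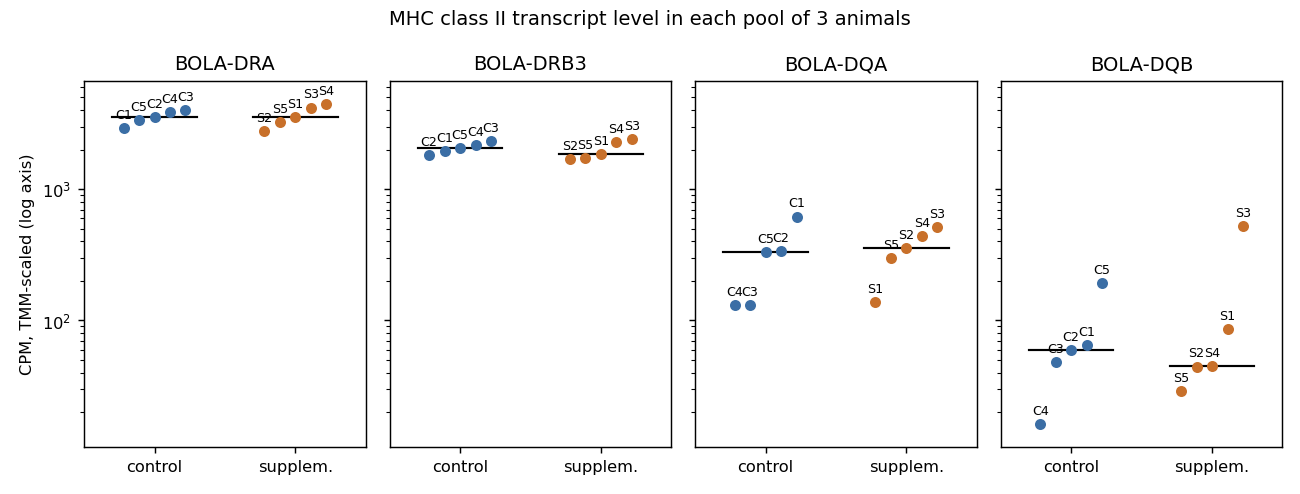
Each point is a pool of 3 animals (C control, S supplemented, with the replicate number), and the vertical log axis gives CPM after TMM scaling; the black bars are group medians. The DR genes stay within 1.61-fold over all pools, whereas BOLA-DQA spans 4.75-fold and BOLA-DQB 32.3-fold, from 16.3 CPM in control pool 4 to 528.0 CPM in supplemented pool 3.

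The order of the pools can be read only against counting error, since each pool is a single library. By exact Poisson 95% intervals, 1 of the 9 neighbouring steps in the order of BOLA-DRA overlapped, control pool 2 beside supplemented pool 1. For BOLA-DRB3 2 of the 9 steps overlapped, for BOLA-DQA 4 and for BOLA-DQB 3. The 3 low pools of BOLA-DQA did not differ from their neighbours within that cluster beyond counting error. Nor did supplemented pools 2 and 4 for BOLA-DQB.

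The spread between pools was then compared between DR and DQ genes, because DQ gene number and sequence differ between haplotypes. The SD of log2 CPM over the 10 pools was 0.22 for BOLA-DRA and 0.19 for BOLA-DRB3, against 0.83 for BOLA-DQA and 1.41 for BOLA-DQB. The median over all tested genes was 0.26, so the DR genes lay below it and the DQ genes above it. A larger SD than that of BOLA-DQB was found in 36 of the 12932 genes (0.278%), and a larger SD than that of BOLA-DQA in 246 (1.90%). For BOLA-DRA 63.1% and for BOLA-DRB3 74.3% of genes had a larger SD. Low counts raise the SD, so each gene was also set beside the genes within 2-fold of its mean CPM. Of 2608 such genes 2 spread more widely than BOLA-DQB, and of 871 such genes 2 spread more widely than BOLA-DQA. Without supplemented pool 3, 134 of all genes (1.04%) and 3 of 3505 genes of like abundance spread more widely than BOLA-DQB, and without control pool 5 as well these were 435 (3.36%) and 15 of 3735. For BOLA-DRA 47 of 57 and for BOLA-DRB3 96 of 110 genes of like abundance spread more widely.

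**Figure D2:**
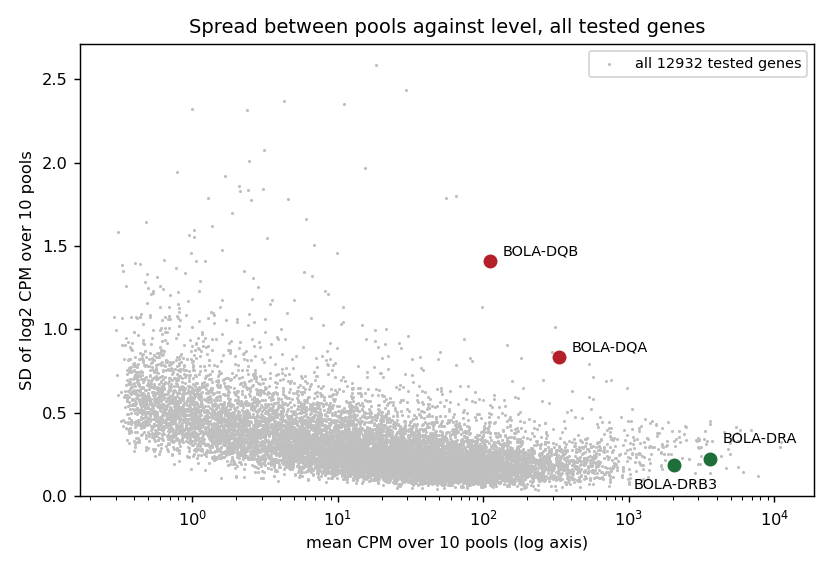
Each grey point is a tested gene, with its mean CPM over the 10 pools (log axis) and the SD of its log2 CPM over pools. BOLA-DQA and BOLA-DQB (red) lie above nearly all genes of like abundance, with SDs of 0.83 and 1.41, and BOLA-DRA and BOLA-DRB3 (green) lie at 0.22 and 0.19.

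Each DQ gene was tested against each DR gene by swapping their centred profiles within pools (exact permutation test over every combination of swaps, two-sided). The SD of BOLA-DQB was 6.38 times that of BOLA-DRA (exact p = 0.00586) and 7.56 times that of BOLA-DRB3 (exact p = 0.00781), with an adjusted p of 0.0156 for both (Benjamini-Hochberg over the 4 comparisons). The SD of BOLA-DQA was 3.78 times that of BOLA-DRA (exact p = 0.0195) and 4.48 times that of BOLA-DRB3 (exact p = 0.0234), with an adjusted p of 0.0234 for both. The comparison was chosen with earlier results of these data known and is no independent evidence. Without control pool 5 and supplemented pool 3 together the SD of BOLA-DQB was 0.74, 3.21 times that of BOLA-DRA (exact adjusted p = 0.117) and 4.02 times that of BOLA-DRB3 (exact adjusted p = 0.0833). Without supplemented pool 3 alone the ratios were 4.56 (exact adjusted p = 0.102) and 5.70 (exact adjusted p = 0.0573), and without control pool 5 alone the ratio to BOLA-DRA was 5.94 (exact adjusted p = 0.0703). The ratios of BOLA-DQA became 3.37 to 4.30 without control pool 3, control pool 4 or supplemented pool 1, its 3 low pools, with exact adjusted p-values of 0.0781 to 0.0859.

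Ratios of 2 genes within a library do not depend on how libraries are scaled. Such count ratios are not corrected for gene length, so only their change from pool to pool can be read. BOLA-DRB3 counts were 66.1, 50.9, 58.8, 56.1 and 61.5% of BOLA-DRA counts in control pools 1 to 5 and 51.7, 61.3, 57.2, 51.7 and 53.3% in supplemented pools 1 to 5. The ratio therefore moved by at most 1.30-fold over the pools. BOLA-DQB counts were 10.5, 17.5, 36.7, 12.5 and 57.9% of BOLA-DQA counts in control pools 1 to 5. They were 62.4, 12.6, 101.8, 10.1 and 9.60% in supplemented pools 1 to 5. The DQ ratio moved by 10.6-fold, and the SD of its log2 was 1.29 against 0.13 for the DR ratio. Without supplemented pool 3 it moved by 6.50-fold with an SD of 1.10, and without control pool 5 as well by 6.50-fold with an SD of 0.99.

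Control pool 3, control pool 5 and supplemented pools 1 and 3 had the high DQ ratios, between 36.7 and 101.8%, and the other 6 pools lay between 9.60 and 17.5%. These pools did not share the same chain levels. In supplemented pool 1 and control pool 3 BOLA-DQA was in its low cluster, at 137.1 and 131.0 CPM, while in supplemented pool 3 and control pool 5 BOLA-DQB was at its highest. Relative to the DR genes, BOLA-DQA per BOLA-DRA moved by 6.42-fold and BOLA-DQB per BOLA-DRB3 by 29.3-fold, or by 12.5-fold without supplemented pool 3 and 6.18-fold without control pool 5 as well. The share of multimapping reads in the pools with the high DQ ratio was 5.51, 5.71, 4.64 and 5.30% in the order named, inside the range of the other pools except for supplemented pool 1, which had the lowest share of all. Its part in the ratio was not tested.

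**Figure D3:**
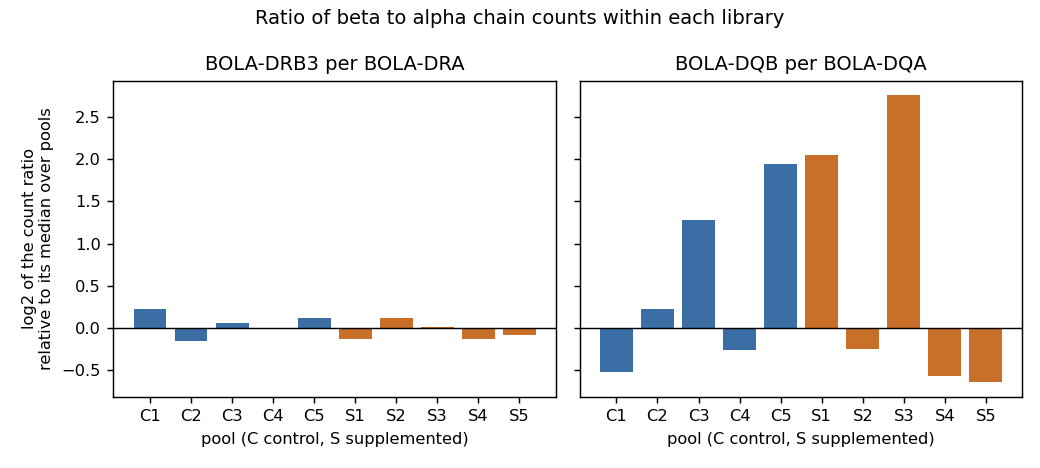
Bars give the log2 of the beta to alpha chain count ratio in each library relative to its median over the 10 pools, with the DR pair on the left and the DQ pair on the right (blue C control, orange S supplemented). The DR ratio has an SD of 0.13 and the DQ ratio an SD of 1.29 on the log2 scale.

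Reads on the strand opposite to each gene made up 0.409 to 0.773% of the reads of BOLA-DRA, 0.569 to 1.07% of BOLA-DRB3, 0.555 to 0.946% of BOLA-DQA and 0.271 to 1.23% of BOLA-DQB. Over all genes the share was 2.13 to 2.88% per library. Counting without regard to strand left the SD of each of the 4 genes within 1.5 times its value. With so few reads on the opposite strand this could hardly have come out otherwise.

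The transcripts of the DR alpha and beta chains rose and fell together over pools. Pearson's r between BOLA-DRA and BOLA-DRB3 on log2 CPM was 0.82 over the 10 pools (permutation p = 0.00519, adjusted over 6 pairs 0.0311) with a Spearman's rho of 0.82 (permutation p = 0.00609, or 0.0365 after the same adjustment). When the 2 pools farthest from the BOLA-DRA median were left out r was 0.72, and on values centred on the group means it was 0.84. Among the 12931 other genes BOLA-DRB3 ranked 37 by its r with BOLA-DRA, and BOLA-DRA ranked 35 by its r with BOLA-DRB3. The adjusted p of r lay above 0.05 with library totals in place of TMM scaling (r = 0.75, permutation adjusted p = 0.0878). It was also above 0.05 without control pool 3 (r = 0.81, exact permutation adjusted p = 0.0599), control pool 4 (r = 0.81, 0.0614), supplemented pool 2 (r = 0.75, 0.128), supplemented pool 3 (r = 0.78, 0.0817) or supplemented pool 4 (r = 0.79, 0.0786), and without control pool 5 and supplemented pool 3 together (r = 0.81, 0.109).

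The same was not shown for the DQ pair or for DQ with DR. Over all 10 pools BOLA-DQA had an r of 0.44 with BOLA-DQB, -0.23 with BOLA-DRA and -0.058 with BOLA-DRB3. A narrower range of BOLA-DQA was then used, chosen after its values were seen. Because the pools were cut into 2 clusters for BOLA-DQA, its correlations were read within the 7 pools of the upper cluster. There r between BOLA-DQA and BOLA-DQB was 0.36 and rho 0.46 (exact permutation p = 0.455 and 0.302, adjusted 0.682 and 0.524), and r was -0.05 when the 2 pools farthest from the BOLA-DQA median were left out. BOLA-DQA had an r of 0.18 with BOLA-DRA and 0.55 with BOLA-DRB3 (exact permutation p = 0.711 and 0.195, adjusted 0.711 and 0.584), with rho of 0.11 and 0.46 (exact permutation p = 0.84 and 0.302, adjusted 0.84 and 0.524). Without the 2 farthest pools these 2 values of r became -0.46 with BOLA-DRA and 0.35 with BOLA-DRB3. Over all 10 pools BOLA-DQB had an r of 0.16 with BOLA-DRA and 0.32 with BOLA-DRB3 (permutation p = 0.673 and 0.382, adjusted 0.711 and 0.682), with rho of 0.12 and 0.33 (permutation p = 0.759 and 0.349, adjusted 0.84 and 0.524). Without the 2 farthest pools these became 0.22 and -0.13. No test of the difference between the correlation of the DR pair and that of the DQ pair was run.

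**Figure D4:**
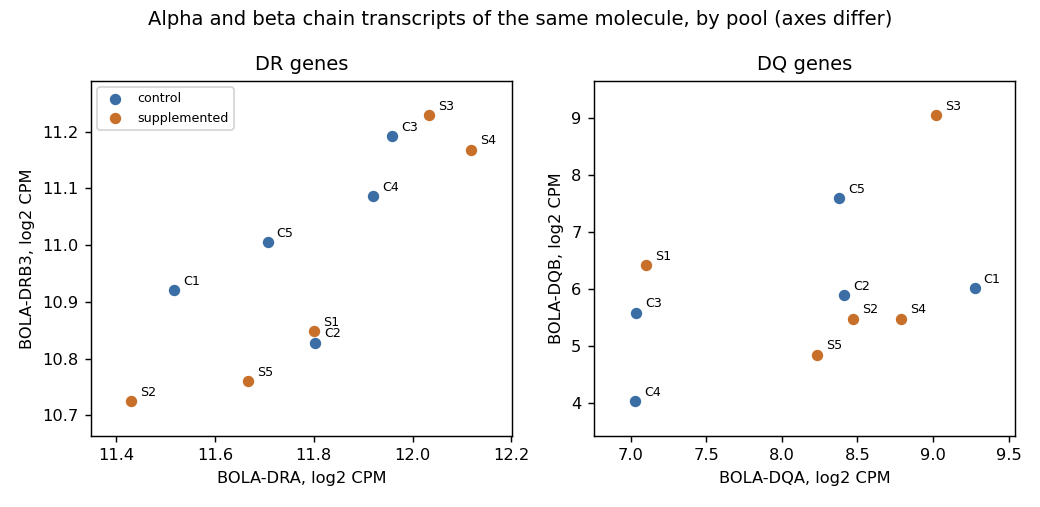
Log2 CPM of the beta chain transcript is plotted against that of the alpha chain transcript for the 10 pools, DR on the left and DQ on the right, with axes of different length. The DR points rise together (r = 0.82), whereas the DQ points show the low BOLA-DQA cluster of control pools 3 and 4 and supplemented pool 1 on the left and supplemented pool 3 at the top.

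The study's first question was whether blood transcripts differ between supplemented and control animals. By the quasi-likelihood test of edgeR, adjusted by Benjamini-Hochberg over all 12932 genes with a threshold of 0.05, none of the 4 genes passed, and 0% of all genes did. Before adjustment 1.97% of all genes had p under 0.05, and none of the 4 was among them. DESeq2's Wald test called 1 gene of all, which was none of BOLA-DRA, BOLA-DRB3 and BOLA-DQA, and it gave BOLA-DQB no p-value. Voom, of limma, called 0 genes. Groups that did not overlap were found for 0.278% of genes and for none of the 4.

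BOLA-DRA averaged 3540 ± 424 CPM over the control pools and 3643 ± 687 CPM over the supplemented ones (mean ± SD, n = 5 each). Its log2 fold change of supplemented over control was 0.04 with a standard error of 0.16, and the 95% interval of the fold ran from 0.816 to 1.30. BOLA-DRB3 averaged 2065 ± 203 and 1994 ± 332 CPM, a log2 fold change of -0.05 (SE 0.14) with a fold between 0.786 and 1.19. For the DR genes the intervals therefore lie inside a 1.5-fold change in either direction.

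BOLA-DQA averaged 311 ± 201 CPM over the control pools and 351 ± 146 CPM over the supplemented ones (mean ± SD, n = 5 each), a log2 fold change of 0.17 (SE 0.41) with a fold between 0.609 and 2.09. BOLA-DQB averaged 76.3 ± 67.8 and 146 ± 214 CPM, a log2 fold change of 0.94 (SE 0.77) with a fold between 0.606 and 6.05. Its group medians, 59.5 CPM in control and 44.7 CPM in supplemented pools, had the opposite order to its means. Without supplemented pool 3 the log2 fold change of BOLA-DQB was -0.58, without control pool 5 it was 1.64 (edgeR unadjusted p = 0.0582, adjusted 1.00), and without control pool 5 and supplemented pool 3 it was 0.11. For the DQ genes these pools thus leave changes of several-fold in BOLA-DQB and of 2-fold in BOLA-DQA inside the interval.

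The second question was whether transcripts follow the copper level itself. In the same edgeR test, none of the 4 genes had a slope on log2 copper that passed the adjusted threshold, and 0% of all genes did. Before adjustment 2.66% of all genes had p under 0.05, again with none of the 4. DESeq2's Wald test called 7 genes of all and voom 0, with none of the 4 in either. Per doubling of copper BOLA-DRA changed by 0.04 log2 units (SE 0.06) and BOLA-DRB3 by 0.01 (SE 0.05), with 95% intervals of the fold per doubling from 0.941 to 1.12 and from 0.931 to 1.09. The slope of BOLA-DQA was 0.0042 (SE 0.14) and that of BOLA-DQB 0.39 (SE 0.34), with intervals from 0.813 to 1.24 and from 0.782 to 2.19. The slope of BOLA-DQB was -0.12 without supplemented pool 3.

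**Figure D5:**
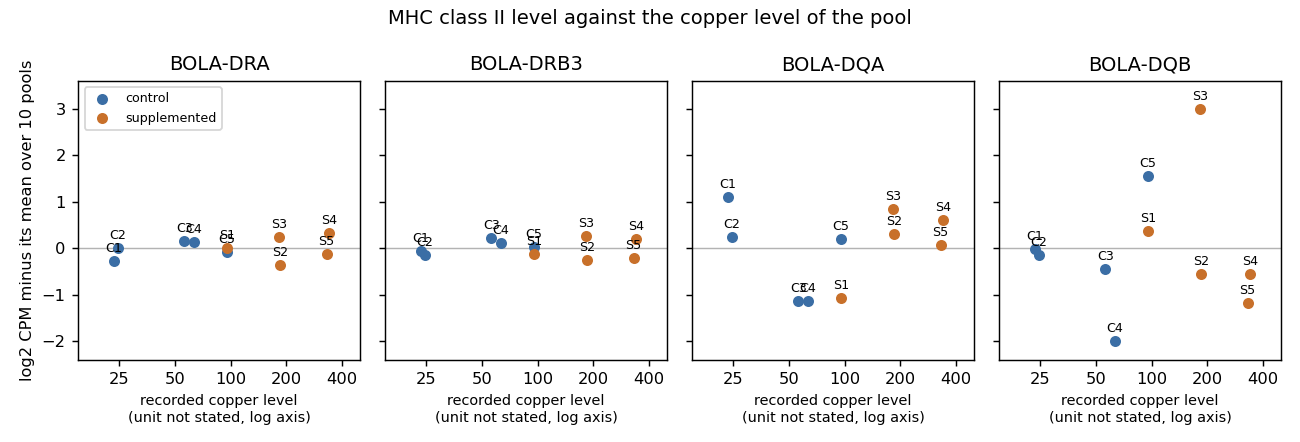
Log2 CPM of each gene minus its mean over the 10 pools is plotted against the recorded copper level (log axis, unit not stated), with control pools in blue and supplemented pools in orange. The DR genes stay near 0 over the whole range of copper, and the highest and the lowest BOLA-DQB values, in supplemented pool 3 and control pool 4, stand at copper levels of 183.61 and 63.37, inside the range.

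Pools with nearly the same copper level show how far the genes varied at a given level. At copper of 183.61 and 185.99, supplemented pool 3 had 11.8 times as much BOLA-DQB as supplemented pool 2, 1.46 times as much BOLA-DQA, 1.52 times as much BOLA-DRA and 1.42 times as much BOLA-DRB3. At the single level where the groups met, control pool 5 (95.61) exceeded supplemented pool 1 (95.48) by 2.25-fold for BOLA-DQB and by 2.43-fold for BOLA-DQA. The same pools differed by 1.07-fold for BOLA-DRA, with the supplemented pool higher, and by 1.12-fold for BOLA-DRB3, with the control pool higher. At 23.42 and 24.58, control pools 1 and 2 differed by 1.82-fold for BOLA-DQA and by 1.09-fold for BOLA-DQB, which was less than the 1.22-fold of BOLA-DRA and close to the 1.07-fold of BOLA-DRB3. At 56.18 and 63.37, control pools 3 and 4 had equal BOLA-DQA within counting error and differed by 2.94-fold for BOLA-DQB, against 1.03-fold for BOLA-DRA and 1.08-fold for BOLA-DRB3. At 342.42 and 330.75, supplemented pool 4 was higher than supplemented pool 5 for all 4 genes by similar factors, 1.37 for BOLA-DRA, 1.33 for BOLA-DRB3, 1.47 for BOLA-DQA and 1.55 for BOLA-DQB. In this pair, and for BOLA-DQB in control pools 1 and 2, the DQ genes differed about as much as the DR genes. These pairs have 1 pool on each side and no test.

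With group and log2 copper in 1 model, the common slope within groups also passed for none of the 4 genes (edgeR, 0% of all genes, and 1.59% with p under 0.05 before adjustment, none of the 4). It was 0.08 (SE 0.11) log2 units per doubling for BOLA-DRA, 0.09 (SE 0.10) for BOLA-DRB3, -0.20 (SE 0.29) for BOLA-DQA and 0.16 (SE 0.56) for BOLA-DQB. Allowing each group its own slope, BOLA-DRA had 0.09 (SE 0.14) in control and 0.07 (SE 0.16) in supplemented pools, and BOLA-DRB3 had 0.11 (SE 0.12) and 0.06 (SE 0.14).

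The DQ genes had slopes of opposite sign in the 2 groups, with wide errors. BOLA-DQA had a slope of -0.52 (SE 0.30) in control and 0.62 (SE 0.46) in supplemented pools. The difference between these slopes was 1.14 (SE 0.55), with an adjusted p of 0.40 in edgeR and 0.0390 in limma's voom with quality weights. BOLA-DQB had 0.52 (SE 0.59) and -1.46 (SE 1.25), a difference of -1.97 (SE 1.39) at an edgeR adjusted p of 0.561. This test called 0% of all genes in edgeR, with 13.2% under an unadjusted p of 0.05 and none of the 4 among them. DESeq2's Wald test called 132 of the 12932 genes and voom 2317 of the 12932, so BOLA-DQA is among 2317 calls in voom. Leaving out 1 pool moved the BOLA-DQB difference to between -3.89 and -0.64, its slope in supplemented pools to between -3.37 and -0.47, and the BOLA-DQA slope in control pools to between -1.42 and -0.15. Without supplemented pool 1 the BOLA-DQA slope in supplemented pools was -0.25 and the difference 0.26. Without control pool 5 and supplemented pool 3 the BOLA-DQB slope in control pools was -0.82 and the difference 0.18.

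Other genes whose pattern over the 10 pools was most like the mean standardised profile of the 4 genes were sought among 12928 genes. ENSBTAG00000046984 had the highest likeness (r = 0.91, rho = 0.94), at 8.67 to 13.5 CPM, followed by ENSBTAG00000015651 (r = 0.89, rho = 0.82), at 0.734 to 3.46 CPM. With the single members, ENSBTAG00000046984 had an r of 0.75 with BOLA-DRA, 0.84 with BOLA-DRB3, 0.53 with BOLA-DQB and 0.29 with BOLA-DQA. The most opposite patterns were those of ENSBTAG00000010928 (r = -0.93, rho = -0.75), at 4.90 to 6.89 CPM, and ENSBTAG00000033608 (r = -0.89, rho = -0.78), at 0.19 to 1.68 CPM. These are the extremes of many values of r, given as a description with no test, and the files give these identifiers no symbol. The 4 genes themselves had an r of 0.67 (BOLA-DRA), 0.79 (BOLA-DRB3), 0.44 (BOLA-DQA) and 0.73 (BOLA-DQB) with the mean profile they form.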

How the data were processed

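For each of the 10 libraries the authors deposited raw counts of reads for every Ensembl gene, 1 column that ignores strand and 1 for either strand. STAR 2.5.1b, HTSeq and the build UMD3.1 are named, per the submitters' processing notes, and the annotation release is not given in the sources used here. Libraries were stranded and poly(A)-selected, per the labels' protocols. Of the strand columns that with the larger sum was taken, and the 4 rows that name no gene were left out: of the reads of a library, 7.77 to 16.7% were unmapped, 20.1 to 23.8% fell in no gene and 4.64 to 7.10% were multimapping.

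Genes were kept with filterByExpr (minimum count 10), scaled by TMM factors and fitted with edgeR 4.0.16 (R 4.3.3) on all 12932 genes with a threshold of 0.05 after Benjamini-Hochberg adjustment. The edgeR fits alone were run on simulated counts with known changes, with the outcome not given here. The DESeq2 and voom fits were not run on such counts. Log2 CPM used a prior count of 2; correlations used 100000 permutations, or all orders below 10 pools. Alternatives were DESeq2 1.42.0, limma 3.58.1 voom, DESeq2 size factors, no filter, unstranded counts, other copper scales, the replicate number as a block and leaving out pools. The named genes were the 4 members and the 2 most and 2 least like their mean profile. Members and lists were chosen with earlier results of these data known; reading BOLA-DQA correlations within 7 pools was chosen after its values were seen. The reference table held 0 of 24616 identifiers, so the lists of MHC class I and II pathway genes and blood cell markers could not be matched. Counts of 2 pools in a group differed beyond sampling noise in every case (chi-square per degree of freedom at least 21.36). Nothing says how pools were drawn, so p-values reflect only the variation among these 10 pools, part of which may be technical.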

Additional observations from a re-analysis of the deposited data

Results flagged for a closer look

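The CPM of the 4 genes, 2 chain ratios and the share of counts in the 4 genes were examined in each group of 5 pools. With the share of multimapping reads this made 16 groups of values, and 2 held a pool far from the others. The rule was meant to set apart about 1 in 20 groups by chance. That rate was not checked for values as uneven as these CPM. Both were BOLA-DQB, read in CPM. Control pool 5 had 192.8 CPM, where the other 4 control pools had 16.3 to 64.8 CPM. Supplemented pool 3 had 528.0 CPM, where the other 4 supplemented pools had 28.9 to 85.5 CPM. In log2 CPM the control pools lay, in ascending order, at 4.04, 5.59, 5.90, 6.02 and 7.59. On that scale control pool 4 stood about as far below the others as control pool 5 above them. The supplemented pools lay at 4.86, 5.48, 5.49, 6.42 and 9.04. The rule set apart no pool for BOLA-DRA, BOLA-DRB3 or BOLA-DQA in either group.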

How the results depend on the processing

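Leaving out control pool 5 and supplemented pool 3 together, and reading BOLA-DQA within its upper cluster, were chosen after seeing the data; the other alternatives were planned. In the 4 fits on all genes, the count of 0 became 1 (group), 7 (copper), 1 (copper within groups) and 132 (difference in slope) in DESeq2's Wald test, and 2317 in voom for the difference in slope; the cause was not tested. Over the fits without a single pool the count for copper was 0 to 1, and the 1 arose without control pool 2. In fits with a replicate block on the pool number 0 genes passed for the group, 0 for copper and 0 for copper within groups, and pairing was not taken from the numbers, since same-numbered pools correlated at -0.28 to 0.42 across genes; only number 3 matched itself best.

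For the 4 genes, 1 alternative moved a call in these fits, voom for the BOLA-DQA difference in slope (1.06). That setting called 2317 of all 12932 genes. Signs changed as follows, all for values that did not pass the adjusted threshold. In voom the BOLA-DQA fold change was -0.33 and its copper slope -0.055, and BOLA-DQB had a copper slope of -0.036 and a slope within groups of -0.15. With the replicate block the copper slope of BOLA-DRB3 was -0.025, and slopes within groups were -0.28 for BOLA-DRA and -0.76 for BOLA-DQB. Without both pools the BOLA-DRA fold change was -0.034, copper slopes were -0.0052 for BOLA-DRB3, -0.037 for BOLA-DQA and -0.15 for BOLA-DQB, and BOLA-DQB had a slope within groups of -0.71 (edgeR adjusted p = 1.00), a control slope of -0.82 and a difference in slope of 0.18.

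Leaving out 1 pool moved log2 fold changes to between -0.040 and 0.13 (BOLA-DRA), -0.13 and 0.0032 (BOLA-DRB3), -0.021 and 0.59 (BOLA-DQA), and -0.58 and 1.64 (BOLA-DQB). Copper slopes lay between -0.0026 and 0.067 (BOLA-DRA), -0.016 and 0.044 (BOLA-DRB3), -0.054 and 0.23 (BOLA-DQA), and -0.12 and 0.57 (BOLA-DQB). Slopes within groups lay between -0.48 and 0.13 (BOLA-DQA) and between -1.05 and 0.39 (BOLA-DQB). Differences in slope lay between -0.16 and 0.094 (BOLA-DRA), -0.15 and 0.056 (BOLA-DRB3), 0.26 and 2.03 (BOLA-DQA), and -3.89 and -0.64 (BOLA-DQB). Control slopes lay between -0.019 and 0.21 (BOLA-DRA), -1.42 and -0.15 (BOLA-DQA), and -0.82 and 0.69 (BOLA-DQB), and supplemented slopes between -0.078 and 0.18 (BOLA-DRA), -0.045 and 0.17 (BOLA-DRB3), -0.25 and 0.93 (BOLA-DQA), and -3.37 and -0.47 (BOLA-DQB).

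The DQ genes had the larger SD in each alternative run. Ratios without 1 pool were 3.37 to 4.60 and 3.99 to 5.05 for BOLA-DQA against BOLA-DRA and BOLA-DRB3, and 4.56 to 7.76 and 5.70 to 8.51 for BOLA-DQB. Without both pools the BOLA-DQB SD was 0.74 and its ratios 3.21 and 4.02. The r of the DR pair was 0.75 with library totals, 0.81 without both pools (exact permutation adjusted p = 0.109) and 0.75 to 0.86 without 1 pool. With library totals r of BOLA-DRA with BOLA-DQA was -0.18; over all 10 pools it was -0.23, that of BOLA-DRB3 with BOLA-DQA -0.058 and that of BOLA-DQA with BOLA-DQB 0.44. Without both pools r was -0.038 for BOLA-DRA with BOLA-DQA, -0.19 for BOLA-DRA with BOLA-DQB and -0.23 for BOLA-DRB3 with BOLA-DQB. Without 1 pool these 3 ranged from -0.037 to 0.74, from -0.21 to 0.30 and from -0.068 to 0.50, and r ranged from 0.41 to 0.85 for BOLA-DRB3 with BOLA-DQA and from 0.037 to 0.62 for BOLA-DQA with BOLA-DQB. Apart from the values over all 10 pools, each r with BOLA-DQA rests only on the kept pools of its upper cluster. Fewer pools also leave fewer swaps and orders to test against.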
